A study of Arabidopsis thaliana with 12 samples.

Results

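Pattern recognition receptors are proteins of the plant cell surface that sense microbial molecules or peptides released on damage, and the 10 Arabidopsis genes described here encode such receptors together with the kinases that act directly with them. They were chosen by locus and comprise FLS2, EFR, PEPR1, PEPR2, CERK1, LYK4, LYK5, BAK1, BKK1 and BIK1, 10 of the 27444 protein-coding genes that the RefSeq annotation of TAIR10.1 places on the 5 nuclear chromosomes. Each gene was measured over its annotated body and over 2000 bp on either side. The annotation used here gives no strand, so the side with the smaller coordinates is called lower and the other higher, and neither was taken as the promoter.

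The 12 libraries came from wild-type plants of ecotype Col-0 (spelled Col-O in the labels), 4 from plants grown with SA-CNPs (salicylic acid loaded on chitosan nanoparticles), 4 from plants inoculated with the powdery mildew fungus Podosphaera xanthii (Px, labelled pathogen) and 4 from untreated control plants, with 2 plant samples per condition. The labels name leaf as the tissue, while the study's methods describe whole plants with the roots cut off. Only 1 processed table was available for analysis, a CpG cytosine report that pools libraries which the sources used here do not name. Its condition is not known and its values carry no replicate error, so no treatment could be set against another. The table gives the number of methylated and unmethylated reads at each CpG cytosine after enzymatic conversion, in which a cytosine that is still read as C counts as methylated.

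A recognised pattern is bound by the outer part of a receptor, which then pairs with a co-receptor kinase, and a cytoplasmic kinase passes the signal on to an oxidase and to MAP kinases. In plants, CpG methylation is copied to new DNA strands by the maintenance methyltransferase MET1. It is found along transposons, and it is also found in the bodies of many transcribed genes, where it usually spares both gene ends. A methylated promoter is often, though not always, associated with silencing of the gene.

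The bodies and flanks of the 10 genes held 3894 CpG cytosines. None was without reads. The median coverage was 59.0 reads, 90% of the cytosines had between 38.0 and 79.0 reads, and the median was close to the nuclear median of 58.0. The level of a region was computed as its methylated calls divided by all its calls, where a call is 1 read at 1 cytosine, and is given with a 95% Wilson interval. The intervals cover counting error only and treat the calls of 1 read as independent, so they can be too narrow. In chloroplast DNA, which served as the unmethylated background, 0.367% of calls were methylated.

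The bodies of the 10 genes ranged from almost no methylation to more than 40%. BAK1 had the highest body level, 41.2% (interval 40.4 to 42.1%), followed by PEPR1 with 35.7% (35.0 to 36.5%) and BKK1 with 28.3% (27.4 to 29.2%). CERK1 had 17.5% (16.9 to 18.1%) and PEPR2 16.5% (15.8 to 17.2%), and the intervals of these 2 overlap. EFR had 9.88% (9.35 to 10.4%), LYK4 3.50% (3.15 to 3.89%) and FLS2 1.14% (0.991 to 1.32%). BIK1, with 0.373% (0.260 to 0.535%), and LYK5, with 0.262% (0.189 to 0.363%), had overlapping intervals, and the chloroplast level lies inside that of BIK1 and just above that of LYK5. A body level of at least 10% was reached by 5 of the 10 genes, beside 40.3% of the 27262 covered protein-coding genes. The members' share is thus near that of genes in general. Their median body level was 13.2%, beside 4.71% over all covered protein-coding genes. All 10 genes, at 2460 to 5242 bp, were longer than the median protein-coding gene of 2078 bp, and the part of gene length was not tested. By role, both co-receptors reached 10%, as did 2 of the 4 leucine-rich repeat (LRR) receptors and 1 of the 3 LysM receptors, while the cytoplasmic kinase BIK1 did not.

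**Figure D1:**
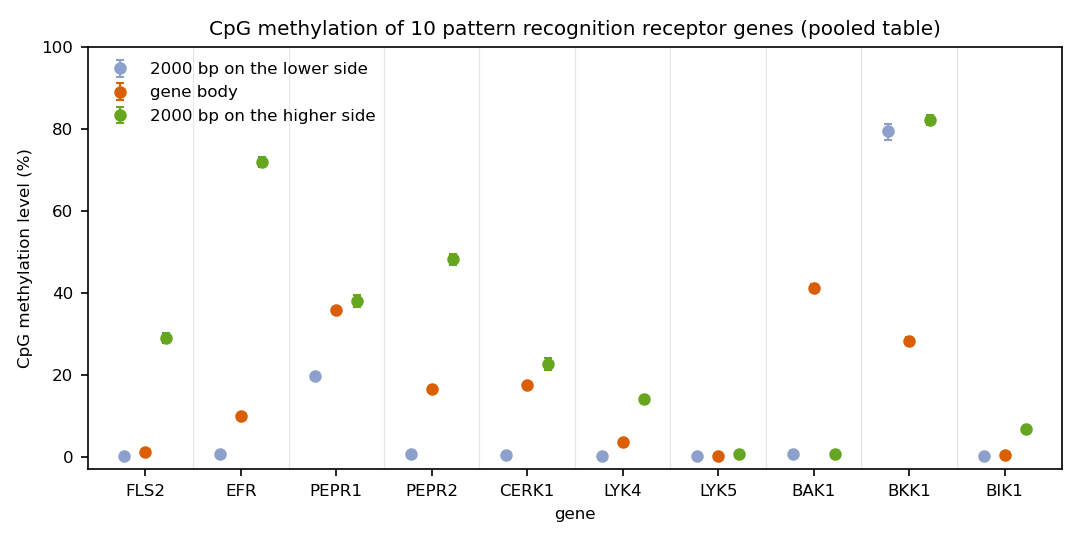
CpG methylation level (%) of each gene in the pooled table, for the lower 2000 bp, the gene body and the higher 2000 bp; points are levels over all calls and bars are 95% Wilson intervals. BAK1 passes 1% in the body alone, BKK1 has flanks of 79.4 and 82.2% around a body of 28.3%, and LYK5 is under 1% in all 3 regions.

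**Figure D2:**
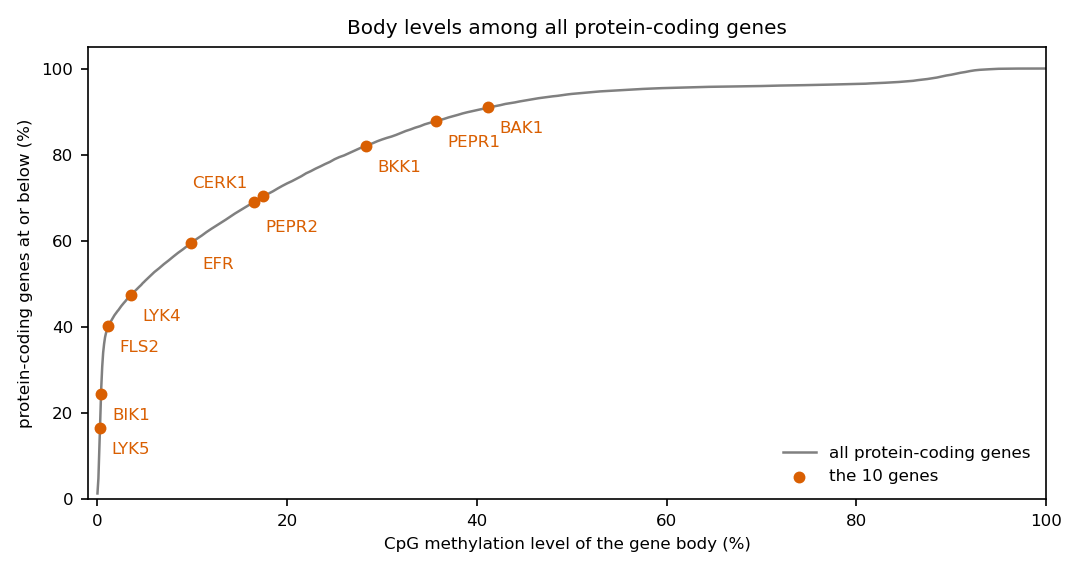
Body levels of the 10 genes (points) on the cumulative distribution over all 27262 covered protein-coding genes (line); the x axis is the body level (%) and the y axis the share of genes at or below it (%). LYK5 stands at 16.5% and BAK1 at 91.0% of the genes.

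Single cytosines were called methylated at a level of at least 25% and an adjusted p below 0.05 in a one-sided exact binomial test against the chloroplast level, with Benjamini-Hochberg adjustment over all covered nuclear CpG cytosines. All nuclear cytosines at 25% or more passed the test, so the minimum level decided the calls. In the 10 genes and their flanks 751 cytosines (19.3%) were called, beside 31.4% of all covered nuclear CpG cytosines. Of these 751, 393 lay in the bodies and 358 in the flanks, and 640 were above 75%. The share of called cytosines at 75% or less was 14.8%, beside 12.1% over the nuclear genome.

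FLS2 (AT5G46330, chromosome 5, 18791575 to 18795908) encodes the receptor of bacterial flagellin. Its body of 4334 bp was nearly free of methylation, with 185 of 16176 calls methylated and 221 of 252 CpG cytosines without a single methylated read. The 5 called cytosines of the body belonged to 3 CpGs, at levels from 28.6 to 50.8%, and none exceeded 75%. These 3 CpGs are the only methylation of the FLS2 body above the minimum level, and the 4 bases around each, read on the plus strand with the CpG in capitals, are given as far as the table holds them.
FLS2, position 18793360: cCGa
FLS2, position 18793372: tCGa
FLS2, position 18795153: gCGc
The first of them had 24 of 62 reads methylated on the plus strand and 31 of 61 on the minus strand, and the second had 22 of 52 and 29 of 62. They lie close together, and when the body was divided into 10 equal parts the part that holds them had a level of 11.0%, while the other 9 did not exceed 1.52%. The lower 2000 bp had 0.261% (0.137 to 0.496%), with no called cytosine. The higher 2000 bp had 29.0% (27.8 to 30.2%), with 30 called cytosines, all of them inside RWA1 (AT5G46340), a gene that overlaps the end of FLS2 by 172 bp. The called cytosine nearest to FLS2 on this side was 560 bp from its end.

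EFR (AT5G20480, chromosome 5, 6921509 to 6925901), the receptor of bacterial elongation factor Tu, had 26 called of 200 body cytosines. They were unevenly placed, and the adjoining parts 7 and 8 of the 10 had levels of 21.9 and 43.9%, while parts 1 to 3 did not exceed 1.14%. A run of 12 called cytosines, from 6924707 to 6924764, had a level of 89.5% (86.9 to 91.7%). The lower 2000 bp had 0.700% and held no called cytosine. The higher 2000 bp had 72.0% (70.8 to 73.2%), and this methylation began 116 bp beyond the gene. It covered the annotated microRNA gene MIR5635a (AT5G03145, 6926005 to 6926446), where all 32 CpG cytosines were called and the level was 95.2% (94.0 to 96.1%). The other 48 called cytosines of this flank lay in the part of XIK (AT5G20490) that falls within the flank, at 61.9% over the 1386 bp concerned. The 28 flanking cytosines of EFR outside annotated genes all lay on the lower side and had 1.29% (0.869 to 1.91%), with none called. On the higher side every CpG cytosine lay in MIR5635a or XIK, so DNA outside genes was not measured there.

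PEPR1 (AT1G73080, chromosome 1, 27484240 to 27488204) and PEPR2 (AT1G17750, chromosome 1, 6106323 to 6110120) encode related receptors of the endogenous Pep peptides, which plants cut from PROPEP precursors on damage. PEPR1 had 107 called of 250 body cytosines, against 40 of 210 in PEPR2. The body level was 35.7% in PEPR1 and 16.5% in PEPR2, a difference of 19.2 percentage points (95% Newcombe interval 18.2 to 20.3). In both genes the methylation left the gene ends free. The called cytosines of PEPR1 began 1241 bp inside its lower end and stopped 483 bp before its higher end, with levels of 74.9 and 83.3% in parts 4 and 5 of the body. In PEPR2 they began 1106 bp inside and stopped 634 bp before the end, and part 8 was the highest, at 64.6%. A run of 32 consecutive called cytosines in PEPR1, from 27486822 to 27487243, had a level of 85.3% (83.5 to 87.0%), and the longest run of the PEPR2 body, with 20 cytosines from 6108980 to 6109185, had 89.0% (86.9 to 90.8%). PEPR1 was the only member besides BKK1 with 10% or more on the lower side. Its lower 2000 bp had 19.6%, and all 28 called cytosines there lay in the neighbouring gene AT1G73066, while all 30 of its higher flank, at 38.0%, lay in AT1G73090, which starts 12 bp beyond PEPR1. Within 1000 bp of PEPR1 the flanks had only 1.01% on the lower side and 0.162% on the higher. The lower flank of PEPR2 had 0.576%. Its higher flank had 48.2%, and all of that flank belongs to CSTF77 (AT1G17760), a gene for an mRNA 3' end processing factor that overlaps the end of PEPR2.

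CERK1 (AT3G21630, chromosome 3, 7615357 to 7618671), LYK4 (AT2G23770, chromosome 2, 10119973 to 10122479) and LYK5 (AT2G33580, chromosome 2, 14219481 to 14222254) encode LysM receptor kinases for chitin, the polymer of fungal cell walls. LYK5 binds chitin and CERK1 provides the active kinase. The 3 genes differed widely, with 44 of 226 body cytosines called in CERK1, 9 of 186 in LYK4 and 0 of 232 in LYK5. In CERK1 the methylation filled the middle of the gene. Its parts 4 to 7 had levels from 50.1 to 94.7%, and the other 6 parts did not exceed 1.14%. The called cytosines spanned 1061 bp, and both ends were free of them over more than 1000 bp (1077 bp at the lower end and 1177 bp at the higher). The lower flank of CERK1 had 0.462%, and its higher flank had 22.6%, with all 18 called cytosines inside TWD1 (AT3G21640).

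LYK4 carried a single short patch of partial methylation in its body. All 9 called cytosines lay within 63 bp, none exceeded 75%, and the lowest was at 29.2%. The 5 CpGs of this patch are given with the flanking bases that the table holds, since they were the only ones of the LYK4 body to pass the minimum.
LYK4, position 10120937: tCGa
LYK4, position 10120955: gCGc
LYK4, position 10120961: tCGc
LYK4, position 10120976: cCGa
LYK4, position 10120998: tCGa
Over the first 3 of these CpGs, a run of 6 called cytosines, the level was 52.1% (46.3 to 57.9%), in the pool of unknown libraries. The CpG at 10120976 had 14 of 48 reads methylated on the plus strand but 7 of 46 on the minus strand, under the minimum. The patch lay across parts 4 and 5 of the body, which had 14.5 and 4.82%, and no other part exceeded 2.29%. LYK4 had 0.247% in its lower flank and 14.0% in the higher, where all 26 called cytosines lay in AT2G23780, 16 of them at 75% or less.

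LYK5 had the lowest body level of the 10 genes, with an interval that overlaps that of BIK1. Its body had 36 of 13738 calls methylated, 200 of its 232 CpG cytosines had no methylated read, and the highest single level was 4.65%. Its flanks had 0.156% (0.0988 to 0.247%) on the lower side and 0.762% on the higher. With flanks of 2000 bp LYK5 was the only one of the 10 genes with less than 1% in the body and both flanks, as were 10.6% of protein-coding genes. This call depends on how the flank is drawn. With flanks of 1000 bp the higher side of LYK5 came to 1.10%, and with other annotated genes left out to 1.12%, and under both settings BIK1 was the one gene with less than 1% in all 3 regions. LYK5 also had the highest CpG density of the 10, with 41.8 CpGs per kb of body. This was higher than in 90.6% of protein-coding genes, whose median was 25.1. The one called cytosine near LYK5 lay 174 bp beyond its higher end, with 19 of 72 reads methylated. Between LYK4 and LYK5, the difference was 3.24 percentage points in the body (interval 2.88 to 3.63) and 0.0912 points in the lower flank, where the interval, from -0.0608 to 0.338, includes 0.

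**Figure D3:**
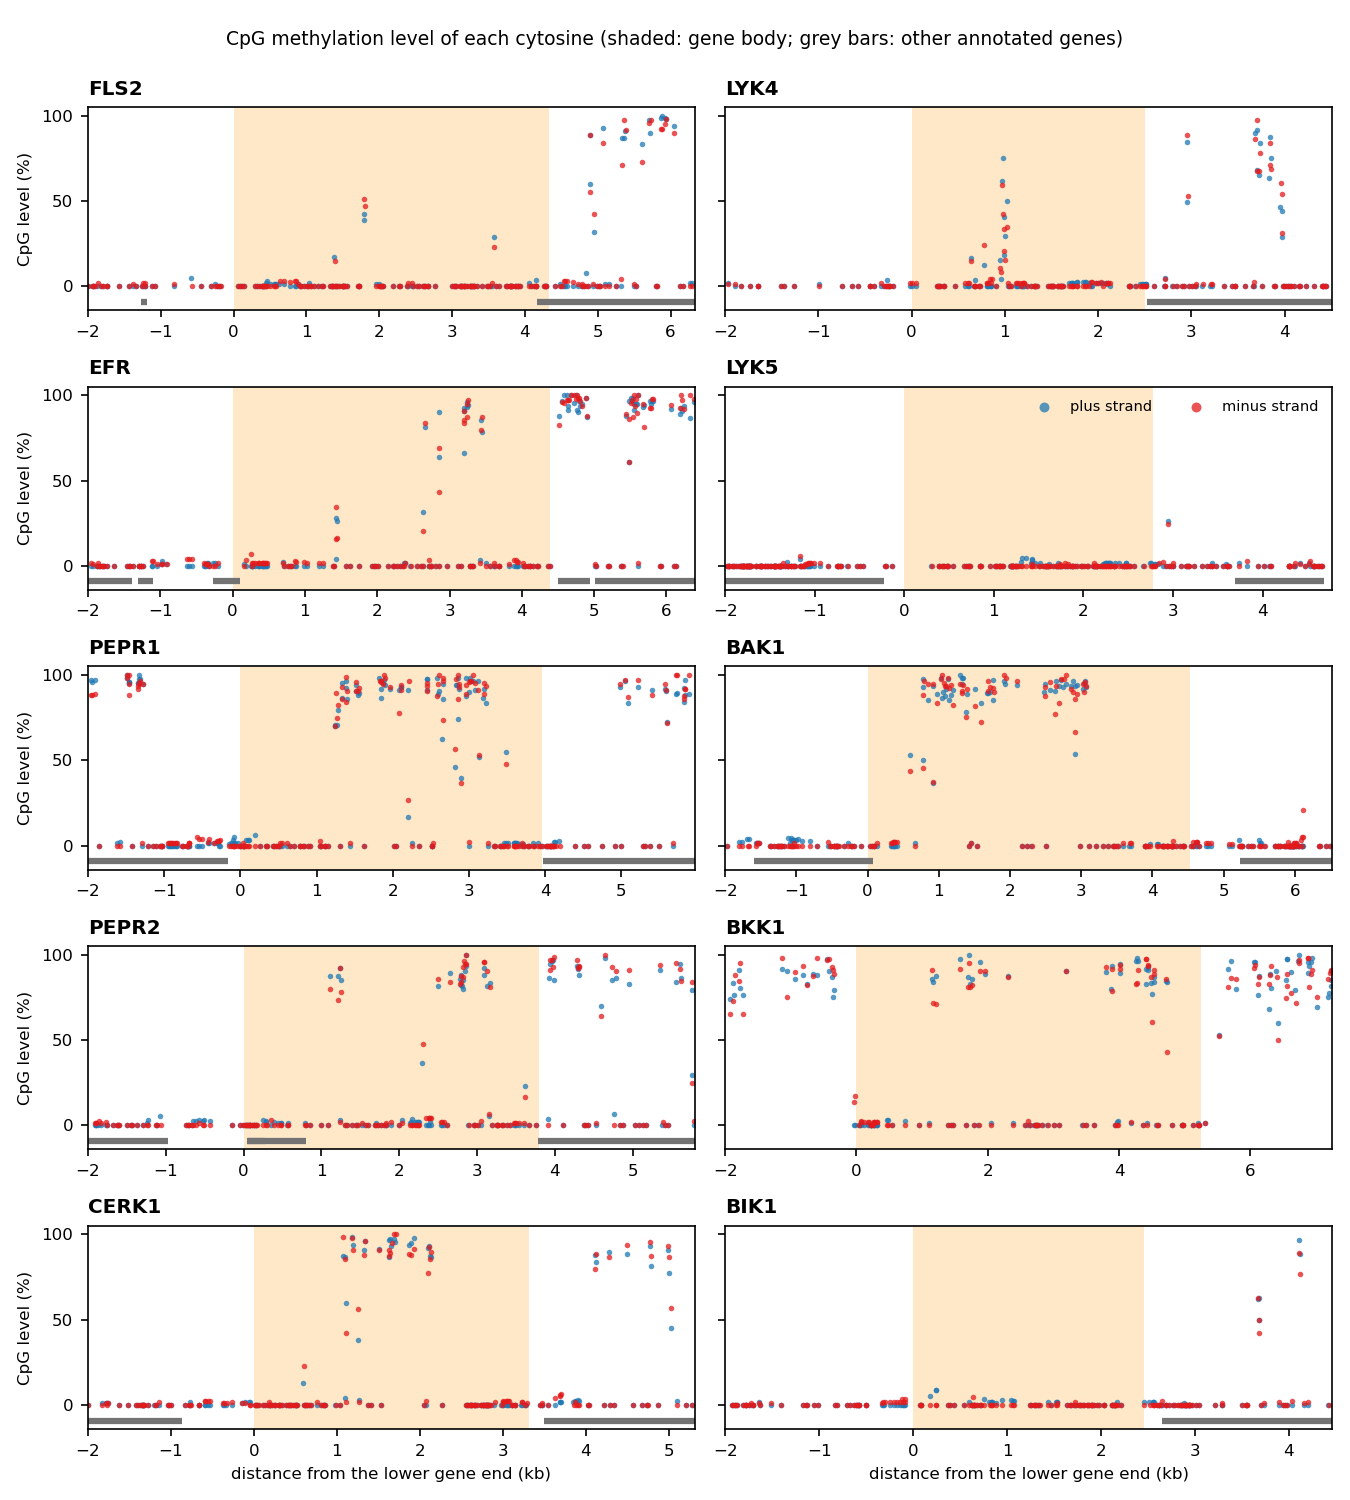
Level (%) of every covered CpG cytosine on the plus strand (blue) and the minus strand (red) against the distance (kb) from the lower end of each gene; the shaded part is the gene body and grey bars are other annotated genes. In the 5 genes with a body level of at least 10% the called cytosines of the body leave at least 450 bp free at both ends; beyond the gene they resume within grey bars around PEPR1, PEPR2 and CERK1 and on both sides of BKK1 in DNA with no grey bar.

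BAK1 (AT4G33430, chromosome 4, 16086311 to 16090832) and BKK1 (AT2G13790, chromosome 2, 5741592 to 5746833, SERK4 in RefSeq) encode co-receptor kinases of the SERK family, which pair with FLS2, EFR and the PEPRs after ligand binding, and BAK1 also pairs with the brassinosteroid receptor BRI1. Both had methylated bodies, with 102 of 214 cytosines called in BAK1 and 60 of 182 in BKK1, and the body levels differed by 13.0 percentage points (interval 11.7 to 14.2). In BAK1 parts 2 to 7 of the body had levels from 54.8 to 88.7%, and parts 8 to 10 did not exceed 0.427%. A run of 44 consecutive called cytosines, from 16087089 to 16087713, had a level of 86.6% (85.2 to 87.9%) and was the longest run within any of the 10 bodies by number of cytosines. In BKK1 the methylation came in 2 groups, with 57.4% in part 4 and 68.5% in part 9, and no methylated call among the 1231 of part 6.

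The surroundings of these 2 related genes were opposite. BAK1 had 0.709% (0.525 to 0.957%) in the lower flank and 0.619% (0.457 to 0.839%) in the higher, with no called cytosine within 2000 bp of the gene, although other genes are annotated on both sides. BKK1 had 79.4% (77.4 to 81.2%) in the lower flank and 82.2% (80.9 to 83.4%) in the higher, where 36 of 40 and 60 of 62 cytosines were called. The difference between BAK1 and BKK1 was -78.7 percentage points in the lower flank (interval -80.5 to -76.7) and -81.6 points in the higher (-82.8 to -80.3). On the lower side 36 consecutive called cytosines ran from 5739664 to 5741252 at 86.6% (84.8 to 88.2%), and on the higher side 60 ran from 5747115 to 5748821 at 85.3% (84.1 to 86.5%). The methylation stopped 340 bp before the lower end of BKK1 and resumed 1146 bp inside it, leaving a stretch of 1485 bp without a called cytosine around that end. Around the higher end the corresponding stretch was 790 bp. BKK1 is the only one of the 10 genes with no annotated gene within 2000 bp, its nearest neighbours being 3728 bp below and 6269 bp above. Levels of at least 50% in both flanks were found at 3.49% of protein-coding genes, and at 13.0% of the 1094 with no annotated gene in either flank. BKK1 also had the lowest CpG density of the 10 genes, with 17.4 CpGs per kb, and the lowest median coverage in a flank, 41.5 reads in the lower 2000 bp.

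The remaining SERK genes, named here after their values had been seen, had methylated bodies as well, SERK2 (AT1G34210) with 54.3%, SERK5 (AT2G13800) with 40.6% and SERK1 (AT1G71830) with 37.2%. SERK5, which lies next to BKK1 on chromosome 2, had 71.5% in its lower flank, the side that faces BKK1, and 17.5% in its higher flank.

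BIK1 (AT2G39660, chromosome 2, 16531527 to 16533986), the cytoplasmic kinase that is phosphorylated by activated receptor complexes and in turn acts on the oxidase RBOHD, had no called cytosine among the 148 of its body. In the body 29 of 7778 calls were methylated, and the highest single level was 9.09%. BIK1 and LYK5 were the 2 of 10 genes with no called cytosine in the body, beside 39.5% of protein-coding genes. The lower flank of BIK1 had 0.306% and the higher 6.87% (6.26 to 7.53%), where all 10 called cytosines lay in AT2G39670, the nearest of them 1216 bp from BIK1.

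A level of at least 10% in at least 1 flank was found at 7 of the 10 genes, beside 61.7% of protein-coding genes, and on the higher side at all 7. With flanks of 1000 bp there were 5, without PEPR1 and LYK4. No share over all protein-coding genes was computed for 1000 bp or for a single side, so these counts have no background beside them. When the flanks were divided into other annotated genes and the DNA between genes, 261 of the 1276 flank cytosines inside genes (20.5%) and 97 of the 518 outside them (18.7%) were called, so that both shares were close. Of the 97, 96 were at BKK1. Around the other 9 genes, 1 of 416 cytosines outside annotated genes was called (0.240%), the one near LYK5. The 416 include none from the higher flanks of FLS2, EFR, PEPR1 and PEPR2, where every CpG cytosine lay inside another annotated gene. Over all CpG cytosines outside annotated genes and within 2000 bp of a protein-coding gene 23.1% were called. BKK1 was set apart here after its values had been seen, and no test was made. With other annotated genes left out of the flanks, 1 of the 10 genes, BKK1, kept a flank of at least 10%, beside 33.6% of protein-coding genes. For FLS2, EFR, PEPR1 and PEPR2 this was read on the lower side alone. At CERK1 and LYK4, 64 of 70 and 108 of 112 cytosines of the higher flank lay in a neighbouring gene. The fall from 7 genes therefore mostly reflects flanks with few or no cytosines left.

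**Figure D4:**
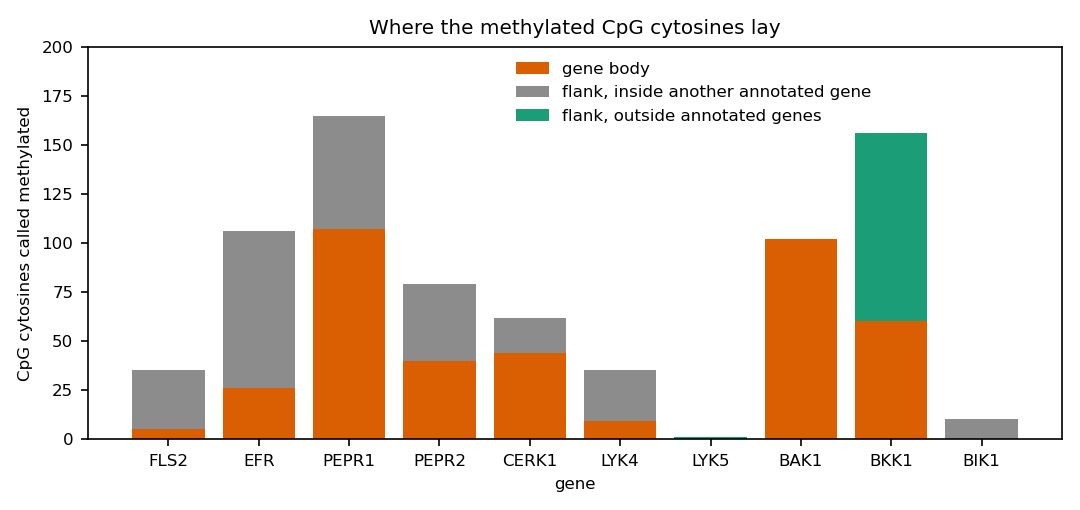
Number of CpG cytosines called methylated at each gene, divided into the gene body, the parts of both 2000 bp flanks inside other annotated genes, and the parts outside them; bars are stacked counts. PEPR1 and BAK1 have 107 and 102 called cytosines in the body, and 96 of the 97 called cytosines outside annotated genes are at BKK1.

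Gene ends were free of methylation in the members with a methylated body. In each of the 5 genes with a body level of at least 10%, the first and the last called cytosine lay at least 450 bp inside the gene, which held for 43.6% of the 10985 protein-coding genes past the same level. The distance of 450 bp was chosen after the members' values had been seen, just under the smallest of them, so that all 5 pass by construction and the count is a description only. The gap at the nearer end ran from 483 bp in PEPR1 to 1077 bp in CERK1, where the median of those genes was 400 bp. Longer genes leave more room for such a gap, and the 5 genes were between 3315 and 5242 bp long, against a median of 2078 bp over all protein-coding genes. The part of gene length in this result was not tested.

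Both strands of a CpG can carry a methyl group, and the table counts them apart. The 2 strands were compared at each CpG by a two-sided Fisher's exact test, adjusted over 2725764 nuclear CpGs. None of the 1947 CpGs at the 10 genes had a strand difference at an adjusted p below 0.05, where 0.0374% of nuclear CpGs did, and at an unadjusted p below 0.05 there were 29 (1.49%, beside 1.96% over the nuclear genome). The smallest unadjusted p of Fisher's exact test was 0.0017, at the CpG of LYK4 at 10120955, with 36 of 48 plus-strand and 20 of 47 minus-strand reads methylated (adjusted p = 1). At 372 of the 379 CpGs with a called cytosine both strands were called.

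**Figure D5:**
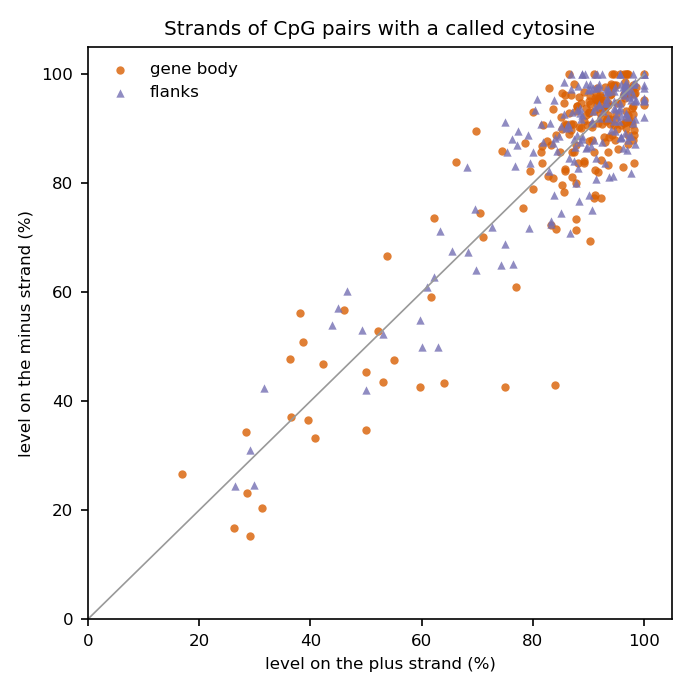
Level (%) on the minus strand against the level on the plus strand for the 379 CpGs of the 10 genes with at least 1 called cytosine, in gene bodies (circles) and flanks (triangles); the line marks equal levels. At 372 of them both strands were called, and the points crowd near full methylation of both strands.

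Body methylation made mostly of partly methylated cytosines, with over 50% of the called cytosines at 75% or less, was seen in 2 of the 8 genes with at least 5 called body cytosines, FLS2 and LYK4, beside 17.0% of such protein-coding genes, by limits chosen after their values had been seen. In the other 6 the median level of the called cytosines lay between 84.6% in EFR and 92.7% in BAK1. The share of body cytosines that were called in these 6 genes ran from 13.0% in EFR to 47.7% in BAK1.

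The wider pathway was read from a list of 48 other genes drawn up for pattern-triggered immunity, taken by locus. Its receptors include the brassinosteroid receptor BRI1, at 14.4%. Of these 48, 24 (50%) had a body level of at least 10%, beside 40.3% of all protein-coding genes, and their median body level was 11.4%, beside 4.71%. With the list limited to the 44 genes whose symbol matched RefSeq, the count was 20 (45.5%) and the median 7.74%, since all 4 genes without a match passed 10%. Co-receptors and adaptors had such a body in 6 of 7 genes, with a median of 37.2%, and other receptors in 7 of 13, with a median of 14.4%. Among genes with a matched symbol, 5 of 6 co-receptors and adaptors (median 38.9%) and 6 of 12 receptors (median 10.9%) had such a body. Cytoplasmic kinases had it in 3 of 7 genes, or in 1 of 5 among those with a matched symbol. The MAP kinase cascade had it in 4 of 9 genes, oxidases and G proteins in 2 of 4 and ubiquitin ligases in 2 of 5. None of the 3 PROPEP genes, the precursors of the PEPR ligands, had it, and their highest level was 0.443%. The highest levels of the list were those of SERK2, of BIR2 (AT3G28450), an inhibitor that holds BAK1 in the resting state, with 45.5%, and of AT5G03320, listed among the cytoplasmic kinases, with 43.1%.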

How the data were processed

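According to the study's methods, Trimmomatic trimming of the enzymatic methyl-seq reads was followed by Bismark and Bowtie 2 alignment against TAIR10.1, from which unique, deduplicated alignments were kept. The authors deposited raw counts of methylated and of unmethylated reads for each strand of each CpG, not normalized, in a pool whose libraries are not named in the sources used here. The lowest count above 0 at a cytosine was 5 reads. CHG, CHH and per-library calls were not analysed here.

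A cytosine was called methylated at 25% or more and an adjusted p below 0.05, and a body or flank at 10% or more. The 48 genes of the wider list were taken by locus, and 44 also matched by symbol. The other limits were set after the members' values had been seen and describe them without a test: runs of at least 6 called cytosines, 450 bp at gene ends, 50% in both flanks, under 1% in body and flanks, bodies with no called cytosine, bodies called mostly at 75% or less, and flanks divided by annotated genes in the count of called cytosines. Regions were taken from RefSeq coordinates of TAIR10.1, without strand or exons. Levels, Wilson and Newcombe intervals, binomial and Fisher's exact tests (Benjamini-Hochberg over all nuclear cytosines or CpGs) were computed under Python 3.11.15. The packages were scipy 1.17.1, statsmodels 0.14.6, numba 0.67.0, pandas 2.3.3 and numpy 2.4.6. The calling of cytosines and the comparison of strands were tested on simulated data, but levels and intervals were not. Figures were drawn with matplotlib 3.10.9. All 10 members were named; of the wider list only the 3 genes with the highest body level, and neighbouring genes where they held called cytosines in a flank. Exceptions are marked. The members and lists were chosen with earlier results of these data known.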

Additional observations from a re-analysis of the deposited data

How the results depend on the processing

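Of 29 recalculated summary values, 26 stayed within a factor of 1.5 (counts) or the counting interval (levels). With other annotated genes left out of the flanks, 1 of the 10 genes in place of 7 had a flank of at least 10%. FLS2, EFR, PEPR1 and PEPR2 then had no CpG cytosine left on the higher side. With a minimum body level of 20%, 3 genes in place of 5 counted as methylated, where 73.3% of covered protein-coding genes were at or below 20%. EFR, at 9.88%, joined the 5 when levels were averaged over cytosines or 300 bp were cut at either end, which gave 6. No share over all protein-coding genes is given for either setting, so the count of 6 has no background beside it. With both strands of a CpG summed, 376 CpGs were called, a change of unit from 751 cytosines. LYK5, at 0.762% on its higher side, passed 1% with 1000 bp, and BIK1 was then under 1% in body and flanks; this count and the list limited to matched symbols (20 genes in place of 24) were added after seeing the data. Of 158 other recalculated values, nearly all of them levels of single regions, 30 moved beyond their interval, most of them flanks that were shortened to 1000 bp or freed of other genes. The alternatives were a minimum of 20 reads, no cytosines of extreme coverage (above 195 reads), another background (5%), other minimum levels and other flanks. No paired analysis was possible because 1 pooled sample has no replicate numbers. Single cytosines at about 59.0 reads are too thinly covered for small differences, so levels were read over regions.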
